A study of Pinus pinaster with 24 samples.

Results

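In Pinus pinaster (maritime pine) root tips, 3 of 47118 transcripts had a lower mean in the developing cortex after ammonium, no comparable decrease in the other root tip tissues, and a water level in the root cap at or above that of the cortex. They are pp_138411, pp_247477 and pp_138407. All 3 were low mainly in 1 cortex library, that of ammonium experiment 3, in which they stood at 6.21% to 8.35% of their mean in cortex after water. In the cortex ammonium libraries of experiments 1 and 4 they stood at 45.6% to 90.1% of that mean. The table gives identifiers without gene names, so no function can be attached to these transcripts, and no sequence is printed.

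The transcripts were chosen from the measured values. On the scale of log2(value + 1), all 3 cortex ammonium libraries had to lie below all 3 cortex water libraries, with a difference of group means of at most -1. The difference had to be above -0.5 in root cap, meristem and developing vessels, and the mean in root cap after water not below that in cortex after water. Of all 47118 transcripts, 606 met the 2 conditions on the cortex itself. Of these 606, 280 also met the conditions on the other 3 tissues. The condition on root cap and cortex water levels was met by 20 of the 606 (3.3%), against 24472 (51.9%) of all transcripts. All conditions together were met by 3. The limit of 200 transcripts set for the list was therefore not reached. The cortex difference and the bounds in the other tissues are descriptions of this choice and are given without a test.

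All libraries came from Segura-Alcaraz seedlings 1 month old, grown in vermiculite and given a nutrient solution without nitrogen before treatment. Seedlings then received 80 mL of 3 mM ammonium chloride or 80 mL of water, and root tips were frozen 24 h later. From 30 µm sections, a laser cut out regions labelled as developing cortex, developing vessels, meristem and root cap, to which the cuts correspond only approximately per the labels. The vessel samples are titled Developing_Root_Vascular, so the region may hold other vascular cells too. There were 3 ammonium and 3 water libraries for each of the 4 tissues, 24 in all, from experiments numbered 1, 3 and 4. The labels do not give the number of seedlings in a library or say whether experiments used separate plants. The spread between libraries may therefore be technical in part, and p-values measure that spread alone.

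The cortex is the ground tissue between the epidermis and the vascular cylinder, and the nutrients taken up at the root surface cross it on their way inward. Ammonium is taken up by transporters in root cells and is assimilated into glutamine and glutamate, mostly within the root, and conifers commonly use it as a nitrogen source. The root cap covers and protects the tip, the meristem supplies new cells, and the developing vascular tissue matures into xylem, which conducts water, and phloem, which carries sugars.

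Each library held 67135340 to 88268689 reads, recovered from the deposited values. Those values are reads divided by a scaled library size, close to CPM. With 72751959 reads, the cortex ammonium library of experiment 3 was not short of depth, yet it stood apart: 32 of 46960 tested transcripts lay there at least 2 below every one of the other 23 libraries on the log2 scale, and 259 lay at least 2 above. The 32 fell into 22 runs of consecutive identifier numbers, single ones included. The other 5 cortex libraries had 0 such low transcripts each, but the meristem ammonium library of experiment 4 had 30. For lone high transcripts, 15 was the next highest count among all libraries. The cortex ammonium library of experiment 3 correlated with cortex water libraries at r = 0.887 across transcripts. For those of experiments 1 and 4 the values were 0.928 and 0.947. The cortex ammonium library of experiment 1 correlated slightly better with root cap water libraries (0.942) than with cortex water libraries. No marker genes could be used to check the tissue labels. Cortex ammonium differences and means are given with and without the cortex ammonium library of experiment 3.

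**Figure D1:**
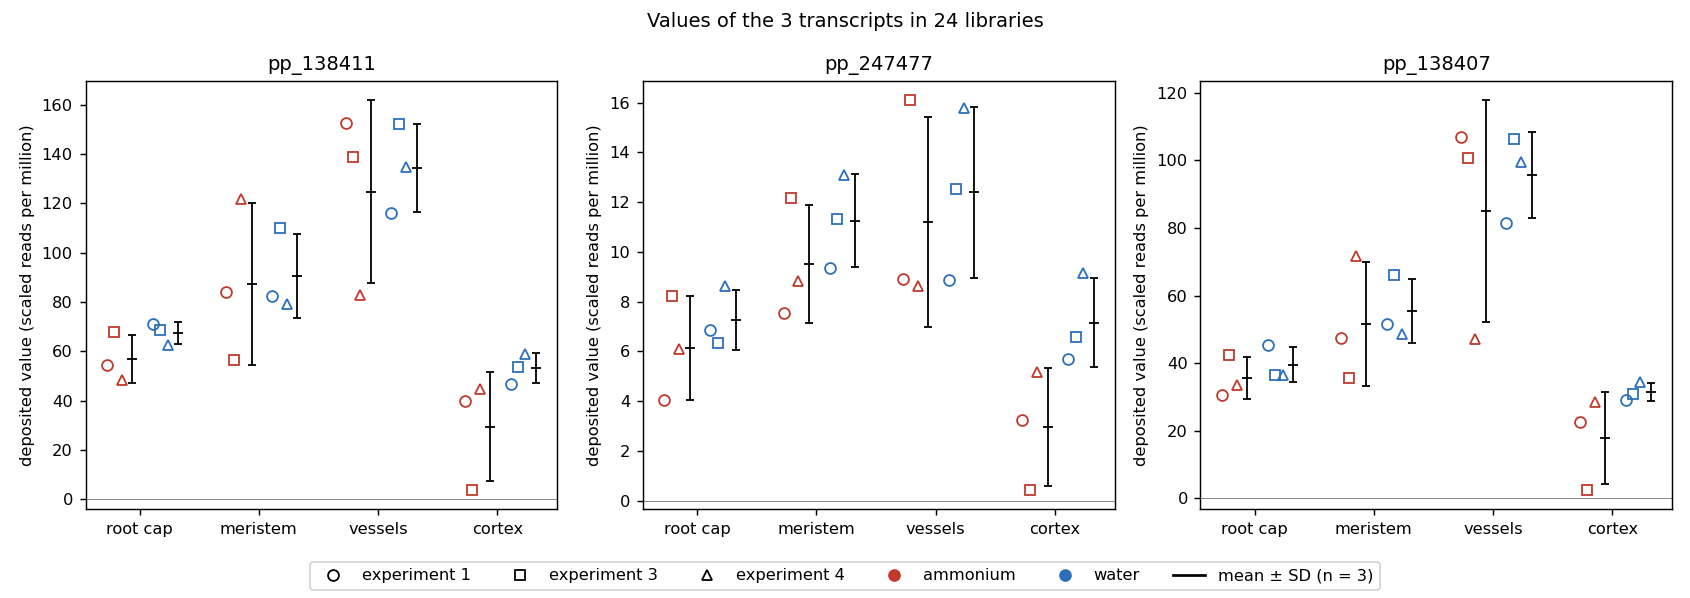
Deposited values of pp_138411, pp_247477 and pp_138407 in the 24 libraries, by tissue (horizontal axis), with ammonium left of water; symbols mark the experiment, and the horizontal tick with its bar gives the mean ± SD of 3 libraries. In cortex the ammonium square of experiment 3 is the lowest point of each panel (3.85, 0.444 and 2.63), and vessels hold the highest points.

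In developing cortex, pp_138411 had 39.9, 3.85 and 44.5 in the ammonium libraries of experiments 1, 3 and 4, against 46.9, 53.7 and 59.1 in the water libraries. The ammonium libraries lay below the water libraries without overlap, as the choice required, but the highest ammonium value was 95.1% of the lowest water value. The means were 29.4 ± 22.3 after ammonium and 53.2 ± 6.13 after water (SD, n = 3 each), a difference of -1.37 on the log2(value + 1) scale. Without the ammonium library of experiment 3 the difference was -0.32. In bulk tissue, fewer cells of a type and less RNA per cell cannot be told apart. The low value of 3.85 stood for 234 recovered reads, against 2448 and 3147 in the other 2 ammonium libraries, and a floor of 3 reads is a value of 0.0493 in that library.

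The transcript pp_138407 showed the same order of libraries. It had 22.6, 2.63 and 28.4 in the cortex ammonium libraries of experiments 1, 3 and 4, and 29.2, 30.9 and 34.4 in the water libraries. Its highest ammonium value reached 97.1% of its lowest water value, the narrowest gap of the 3 transcripts. The means were 17.9 ± 13.5 after ammonium and 31.5 ± 2.63 after water (SD, n = 3 each). The log2 difference was -1.25, and -0.30 without the ammonium library of experiment 3, where 160 reads were recovered.

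The third transcript, pp_247477, had 3.26, 0.444 and 5.15 in the cortex ammonium libraries and 5.71, 6.57 and 9.15 in the water libraries. Its means were 2.95 ± 2.37 after ammonium and 7.14 ± 1.79 after water (SD, n = 3 each), a log2 difference of -1.26. The ammonium library held 57.0% of the water library in experiment 1, 6.75% in experiment 3 and 56.3% in experiment 4. Without the ammonium library of experiment 3 its difference was -0.65, which no longer met the limit of -1. That library held 27 recovered reads of it.

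For pp_138411 the cortex ammonium library held 85.1%, 7.16% and 75.4% of the water library in experiments 1, 3 and 4. For pp_138407 the corresponding shares were 77.2%, 8.53% and 82.6%. Every transcript was thus below its water library in each experiment, as the choice required, with the widest margin in experiment 3. Libraries are set side by side here by experiment number and are not taken as pairs. In experiments 1 and 4, pp_247477 had a wider margin than pp_138411 and pp_138407. In the 46960 transcripts tested, 9.24% had all 3 cortex ammonium libraries below all 3 water libraries.

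**Figure D2:**
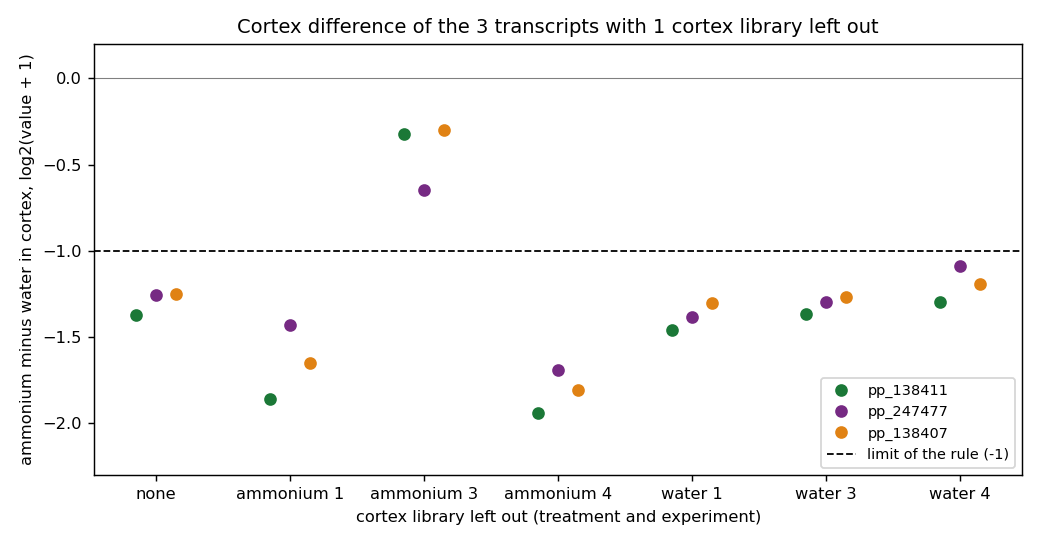
Difference of cortex group means (ammonium minus water, log2(value + 1), vertical axis) of the 3 transcripts with all 6 cortex libraries and with each cortex library left out in turn (horizontal axis); the dashed line is the limit of -1. Without the ammonium library of experiment 3 the differences are -0.32, -0.65 and -0.30, and in the other 5 cases they run from -1.94 to -1.09.

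Leaving out a cortex library other than that of ammonium experiment 3 kept all 3 differences at or below -1. They ran from -1.94 to -1.30 for pp_138411, from -1.69 to -1.09 for pp_247477 and from -1.81 to -1.19 for pp_138407. Without the water library of experiment 1 or that of experiment 3, pp_247477 missed the condition on the root cap, because its cortex and root cap water means lay within 0.04 of each other on the log2 scale. The limma fit over all 24 libraries called 0 of the 3 transcripts lower in the cortex at an adjusted p under 0.05, where it called 36 transcripts lower, 0.0767% of those tested. Without the ammonium library of experiment 3 limma called 19 lower, and on recovered reads edgeR called 0 (5304 in either direction at an unadjusted p under 0.05) and DESeq2 563. None of these calls included any of the 3. As the transcripts were chosen from this contrast, nothing is read from that count.

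The nearest transcripts that met every other condition were just outside the limit. Transcript pp_111122 had a cortex difference of -0.996, with 0.358, 0.197 and 0.552 after ammonium and 1.13, 2.18 and 1.95 after water in experiments 1, 3 and 4. Transcript pp_166845 had a difference of -0.94, with 3.84, 3.72 and 4.59 after ammonium and 9.85, 9.24 and 7.03 after water. In both, the ammonium libraries lay below the water libraries, and the library of experiment 3 was the lowest but stood nearer to those of experiments 1 and 4 than it did in the 3 chosen transcripts. In all, 849 transcripts met every condition except the size of the cortex difference, the 3 included.

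Transcripts with identifier numbers within 10 of a chosen one, 9 in all, did not behave alike. The files do not say whether they belong to one gene, and how reads were divided among similar sequences is unknown. Of 5 listed transcripts numbered pp_138407 to pp_138412, pp_138409 and pp_138412 also had cortex differences of at most -1 (-1.21 and -1.09). They were not chosen, because their ammonium values overlapped the water values. In cortex, pp_138409 had 17.2, 1.55 and 20.7 in the ammonium libraries and 20.2, 22.96 and 23.7 in the water libraries of experiments 1, 3 and 4. For pp_138412 the values were 15.8, 1.74 and 18.7 after ammonium and 17.7, 18.8 and 22.5 after water. Both had the single low library of experiment 3 and values near or within the water range in experiments 1 and 4.

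The listed transcripts further along, pp_138415 and pp_138416, were not low in the ammonium library of experiment 3. There they held 1.05 and 0.888, which was 206% and 201% of their cortex water means, and their cortex differences were 0.06 and -0.01. The low library was thus shared by the transcripts up to pp_138412, with pp_138408 near the floor there, and not by these 2.

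**Figure D3:**
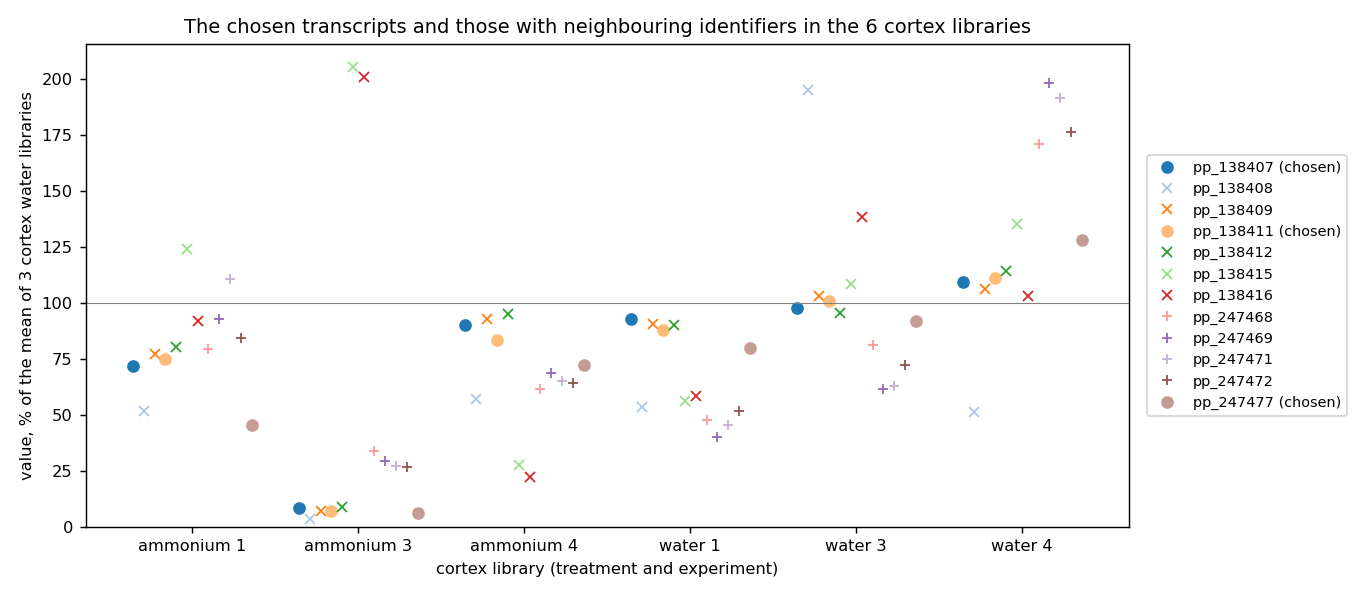
Values of the 3 chosen transcripts (circles) and of all 9 listed transcripts with identifiers within 10 of theirs (crosses near pp_138411, plus signs near pp_247477) in the 6 cortex libraries (horizontal axis), as a percentage of each transcript's mean over the 3 cortex water libraries (vertical axis). In the ammonium library of experiment 3 the chosen ones lie at 6.21% to 8.35%, pp_138408, pp_138409 and pp_138412 at 3.68% to 8.87%, the neighbours of pp_247477 at 26.7% to 34.02%, and pp_138415 and pp_138416 at 206% and 201%. The 3.68% of pp_138408 is 4 recovered reads, near the floor of 3. Its water mean includes 3.49 in experiment 3 beside 0.961 and 0.914 in experiments 1 and 4.

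The transcripts pp_138407 and pp_138411 are not independent observations. Over 24 libraries their log2 values correlated at r = 0.991, and over the 18 libraries of the other tissues at r = 0.981. Those libraries share tissue differences, and the correlation is a description. The value of pp_138407 divided by that of pp_138411 stayed between 0.534 and 0.738 in all libraries, also in the low cortex library, where it was 0.684. In vessel water libraries the quotient was 0.700, 0.698 and 0.738, above the range of 0.534 to 0.641 in the water libraries of the other 3 tissues. In ammonium libraries the tissues were not separated in this way, with 0.699, 0.726 and 0.571 in vessels and 0.563 to 0.693 in the other tissues.

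The identifier of pp_247477 lies far from theirs. Its correlation with pp_138411 was r = 0.889 over 24 libraries, 0.734 without the low cortex library and 0.616 over the 18 libraries of the other tissues. Its listed neighbours pp_247468, pp_247469, pp_247471 and pp_247472 were also lowest in the cortex ammonium library of experiment 3, but nearer to their other values. In the cortex ammonium library of experiment 3 they held 2.27, 4.26, 3.50 and 3.47, which was 60.0% to 95.0% of their lowest value in any other library. For pp_247477 that share was 13.6%, for pp_138411 9.65% and for pp_138407 11.7%.

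In the root cap, ammonium and water libraries overlapped for all 3 transcripts, while 6.65% of the transcripts tested had all ammonium libraries below all water libraries and 6.03% had them above. For pp_138411, the root cap held 54.3, 67.8 and 48.5 after ammonium and 71.0, 68.6 and 62.6 after water in experiments 1, 3 and 4. The differences were -0.25 for pp_138411, -0.25 for pp_247477 and -0.15 for pp_138407 on the log2 scale, small and negative, within the bound of the choice. Root cap values of pp_247477 were 4.04, 8.23 and 6.10 after ammonium and 6.87, 6.33 and 8.63 after water. Those of pp_138407 were 30.7, 42.5 and 33.6 after ammonium and 45.5, 36.6 and 36.6 after water. In the root cap the ammonium library of experiment 3 was the highest of the ammonium libraries for each transcript, where in the cortex it was the lowest.

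In the meristem, pp_138411 had 84.1, 56.4 and 122 after ammonium and 82.3, 110.1 and 79.0 after water. Transcript pp_138407 had 47.3, 35.7 and 71.8 after ammonium and 51.6, 66.1 and 48.6 after water, and pp_247477 had 7.54, 12.2 and 8.83 after ammonium and 9.34, 11.3 and 13.1 after water. The groups overlapped in each case, with differences of -0.10, -0.15 and -0.23. Of the transcripts tested, 6.01% had all ammonium libraries below all water libraries in the meristem and 4.38% above. The meristem ammonium library of experiment 3, in which pp_138411 and pp_138407 were lowest, correlated better with cortex water libraries (r = 0.948 across transcripts) than with meristem water libraries (0.854). The meristem ammonium library of experiment 4, in which both were highest, correlated with root cap water libraries at 0.898 and with meristem water libraries at 0.882. It scored 2.42 for the root cap list described further on, against 0.34 in experiment 1 and 1.39 in experiment 3 for the same tissue and treatment, and it had 30 lone low transcripts. What part these resemblances have in those values was not tested.

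In developing vessels, pp_138411 had 153, 139 and 82.7 after ammonium and 116, 152 and 135 after water in experiments 1, 3 and 4. For pp_138407 the values were 107, 101 and 47.2 after ammonium and 81.4, 106 and 99.4 after water, and for pp_247477 they were 8.91, 16.1 and 8.64 after ammonium and 8.89, 12.5 and 15.8 after water. Ammonium and water again overlapped, with differences of -0.15, -0.25 and -0.15, where 4.25% of the transcripts tested had all ammonium libraries below and 4.44% above. For each of the 3 the lowest vessel library was that of ammonium experiment 4, not experiment 3. It correlated with meristem water libraries at r = 0.927, against 0.806 and 0.814 for the vessel ammonium libraries of experiments 1 and 3, and with vessel water libraries at 0.941. Its part in those values was not tested.

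The levels of all 3 transcripts ran in the same order over tissues, highest in vessels, then meristem, root cap and cortex, both after ammonium and after water. That root cap stood at or above cortex after water was a condition of the choice. Together with the bounds on the differences, it also fixed the order of their log2 means after ammonium. In water libraries, pp_138411 averaged 134 ± 17.96 in vessels, 90.5 ± 17.1 in meristem, 67.4 ± 4.32 in root cap and 53.2 ± 6.13 in cortex (SD, n = 3 each), and the libraries of neighbouring tissues in this order did not overlap. The same held for pp_138407, with 95.7 ± 12.8, 55.4 ± 9.36, 39.6 ± 5.13 and 31.5 ± 2.63 in the same order. For pp_247477 the means were 12.4 ± 3.44 in vessels, 11.2 ± 1.87 in meristem, 7.28 ± 1.20 in root cap and 7.14 ± 1.79 in cortex, and vessels overlapped meristem as root cap overlapped cortex.

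In ammonium libraries the tissues were less cleanly separated. The choice held the cortex ammonium values low, so the gap between root cap and cortex there is a description only. Transcript pp_138411 averaged 125 ± 37.1 in vessels, 87.4 ± 32.9 in meristem, 56.9 ± 9.91 in root cap and 29.4 ± 22.3 in cortex (SD, n = 3 each), and root cap and cortex were the one neighbouring pair without overlap. For pp_138407 the means were 84.9 ± 32.8, 51.6 ± 18.4, 35.6 ± 6.16 and 17.9 ± 13.5 in that order, again with root cap and cortex apart. For pp_247477 they were 11.2 ± 4.22, 9.51 ± 2.39, 6.12 ± 2.09 and 2.95 ± 2.37, and each neighbouring pair overlapped. Without the cortex ammonium library of experiment 3, the cortex means were 42.2 for pp_138411, 25.5 for pp_138407 and 4.204 for pp_247477, still the lowest of the 4 tissues.

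The choice did not compare vessels with meristem, and their difference was tested in the fit over 24 libraries. That fit pools the spread of all 8 groups, including the cortex ammonium values that the choice used. For pp_138411 the SD of log2 values was 1.82 in cortex ammonium and 0.55 in meristem ammonium, the next highest. The SEs, intervals and p-values of the 3 are thus not free of the choice. A lack of calls among them is not read as a lack of difference. After water, 2 of the 3 transcripts had all vessel libraries above all meristem libraries, as did 26.0% of the transcripts tested, and 24.9% had them all below. The log2 difference, vessels minus meristem, was 0.57 for pp_138411 (SE 0.55, 95% interval -0.57 to 1.72, limma adjusted p = 0.478). It was 0.78 for pp_138407 (SE 0.52, interval -0.30 to 1.86, limma adjusted p = 0.290) and 0.11 for pp_247477 (SE 0.39, interval -0.71 to 0.93, limma adjusted p = 0.890). None of the 3 passed the threshold of 0.05 in limma, in edgeR or in DESeq2, and 0 had an unadjusted p under 0.05 in limma. Such an unadjusted p in limma was found for 16607 of the 46960 transcripts tested. At the threshold, edgeR called 4383 higher and 2141 lower in vessels, and DESeq2 6529 and 5370. Of the transcripts tested, limma called 13.4% higher and 6.42% lower in vessels, 19.8% in all.

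The result for pp_138407 depended on the low cortex library, although that library is in neither tissue, since the fit estimates one spread over all groups. Without the cortex ammonium library of experiment 3 the adjusted p in limma was 0.0475, and in a limma fit of the 6 libraries compared it was 0.0197, with the same difference of 0.78. The vessel value was higher than the meristem value in 3 of 3 experiments, which follows from the lack of overlap and adds nothing to it. For pp_138411 the adjusted p in limma was 0.106 without the cortex ammonium library of experiment 3 and 0.0563 in the fit of the 6 libraries. For pp_247477 the corresponding values were 0.825 and 0.748.

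After ammonium, none of the 3 had vessel libraries apart from meristem libraries, and 0 passed the threshold in limma, edgeR or DESeq2, or had an unadjusted p under 0.05 in limma. Such an unadjusted p in limma was found for 9803 of the 46960 transcripts tested. At the threshold, edgeR called 2644 higher and 1595 lower in vessels, and DESeq2 4055 and 3219. Of the transcripts tested, 11.3% had vessel libraries all above and 6.33% all below, and limma called 8.09% higher and 2.15% lower in vessels, 10.2% in all. The vessel minus meristem differences were 0.53 for pp_138411, 0.68 for pp_138407 and 0.19 for pp_247477, with limma adjusted p = 0.666, 0.522 and 0.860. These rest on the same pooled spread. Without the cortex ammonium library of experiment 3 the limma adjusted p values were 0.228, 0.14 and 0.756. When meristem ammonium experiments 3 and 4, whose libraries resembled other tissues, were left out, the adjusted p values in limma were 0.712, 0.543 and 0.632. The single meristem library then left is assumed to vary like the other groups.

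Of 3 lists of transcripts enriched in other tissues, only the vessel list had cortex ammonium and water libraries without overlap. The root cap list shifted upward after ammonium with a narrow overlap. The lists were made from the 18 libraries of root cap, meristem and vessels, and none of the 3 transcripts was among the enriched ones. The 200 leading vessel transcripts averaged 1.24, 1.24 and 0.84 in the cortex ammonium libraries of experiments 1, 3 and 4, and 1.58, 2.37 and 2.62 in the cortex water libraries on the log2(value + 1) scale. In vessel libraries themselves they averaged 5.15 to 6.81. Every cortex ammonium library thus lay below every cortex water library for the vessel list.

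The 200 leading root cap transcripts averaged 6.57, 6.17 and 4.76 in the cortex ammonium libraries and 4.29, 4.84 and 3.42 in the water libraries. The ammonium libraries were higher, except that 4.76 lay just below 4.84. The 83 meristem-enriched transcripts averaged 1.97, 0.78 and 1.40 after ammonium and 1.42, 1.57 and 1.90 after water. Their lowest cortex score was in the ammonium library of experiment 3, where 16 of the 83 were listed at 0, against 0 to 4 in the other 5 cortex libraries. The part of these shifts in the lower cortex values of pp_138411, pp_138407 and pp_247477 was not tested.

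**Figure D4:**
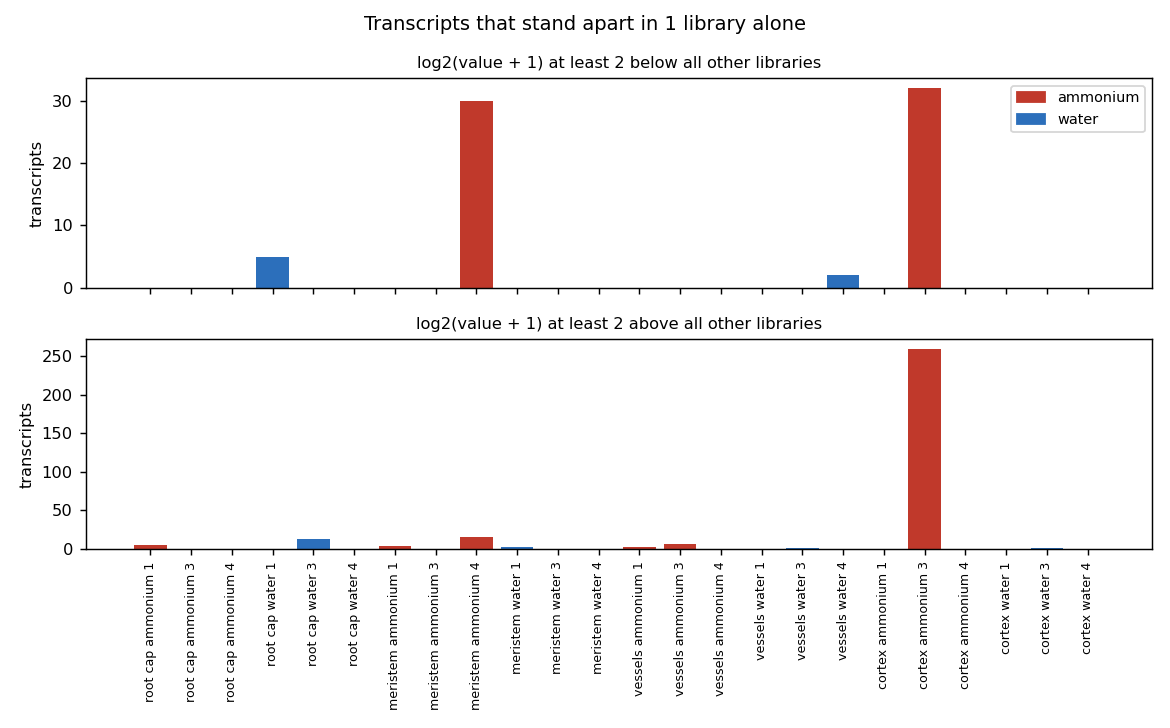
Number of transcripts per library (vertical axes) that lay at least 2 below (upper panel) or above (lower panel) every one of the other 23 libraries on the log2(value + 1) scale; red bars are ammonium and blue bars water libraries. The cortex ammonium library of experiment 3 has 32 lone low and 259 lone high transcripts, the highest count in each panel, followed among the low counts by 30 in the meristem ammonium library of experiment 4.

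Both pp_138411 and pp_138407 were among the 32 transcripts that were low in the cortex ammonium library of experiment 3 alone. The gap between that library and the lowest of the other 23 was 3.08 for pp_138411 and 2.70 for pp_138407, the widest and the fourth widest of the 32. Between them stood pp_138409 from the same group of identifiers, at 2.84, and pp_234591, at 2.77. The fifth was pp_138412, at 2.61. For pp_247477 the lowest other library was the cortex ammonium library of experiment 1, with 3.26, and its gap of 1.56 was below the limit of 2.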

How the data were processed

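RNA of the laser-cut regions was amplified by SMART-Seq v4 and read in pairs of 150 bp, per the labels' protocols. The authors deposited a signal for each transcript. Judged from the numbers, it is reads over a scaled library size, with column sums of 793680 to 1210367. Within 0.01 reads, 100% of the values came out as whole reads. The second-highest value of every listed transcript was at least 1.6, so transcripts with lower signal appear to have been left out before deposit. Read totals and shares are over the listed transcripts only. The submitters' processing notes name bcl2fastq and BWA; the reference, the counting and the scaling are not given. A value of 3 reads was 0.0309 to 0.0493, a floor for counting error only.

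Values were taken as log2(value + 1), which understates differences of low transcripts. Transcripts with at least 1 in at least 3 libraries were tested (46960, with 158 removed) in one limma model of 8 groups over 24 libraries (empirical Bayes with trend, Benjamini-Hochberg adjustment over all, threshold 0.05). The design had assumed CPM, and its test was kept for the scaled signal. The edgeR quasi-likelihood test and DESeq2 on recovered reads were alternatives (R 4.3.3, limma 3.58.1, edgeR 4.0.16, DESeq2 1.42.0, matplotlib 3.10.9). Tissue lists of up to 200 transcripts came from the libraries outside the cortex. The test was run on simulated data for vessels minus meristem in water: of 50 transcripts each among 46960, 12% changed 2-fold and 72% changed 4-fold were recovered.

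Transcripts to be named were the 10 lowest in cortex difference, those beside the limit and the extremes of other comparisons. Identifier neighbours, similar transcripts and lone low transcripts were named after their values were seen. The members and lists were chosen with earlier results of these data known. Vessel and meristem libraries of one experiment number deviated together from their group means. For experiments 1, 3 and 4, r was 0.120, 0.633 and 0.157 in ammonium and 0.644, 0.499 and 0.252 in water. Pairs of unlike number reached at most 0.0125 in water. In ammonium, vessel experiment 4 and meristem experiment 1 reached 0.349, above the values of experiments 1 and 4. The numbers thus pair the water libraries, a finding of the data and not of the labels, and in ammonium the pairing is unclear.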

Additional observations from a re-analysis of the deposited data

How the results depend on the processing

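The number of transcripts meeting the rule was 3, but 34 with pseudocount 0.1, 1 with pseudocount 4, and 3 to 24 with 1 cortex library left out. Without the cortex ammonium library of experiment 3 it was 7, and these included 0 of the 3. Quantile normalization gave 4, and so did CPM from recovered reads, an alternative added after seeing the data. That CPM scaling moved the median cortex difference of all transcripts by -0.1. The median cortex difference of the 3 transcripts was -1.26. It was -1.47 with pseudocount 0.1 and -0.99 with pseudocount 4, and ran from -1.81 to -0.32 with 1 library left out.

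Of the 3 transcripts, 0 were called higher in vessels than in meristem after water, but 1 in the fit of the 6 libraries compared, and 0 to 1 with 1 library left out, where the 1 was pp_138407 without the cortex ammonium library of experiment 3. Its adjusted p ran from 0.0197 to 0.470 over its alternatives. For pp_247477 the vessel minus meristem difference turned to -0.012 after water with quantile normalization, and with 1 library left out it ran from -0.071 to 0.31 after water and from -0.081 to 0.36 after ammonium, and was 0.46 with both experiments 3 and 4 of meristem ammonium left out. Cortex ammonium and water libraries of one number deviated together in experiments 3 and 4 (r = 0.312 and 0.354) but not in experiment 1 (-0.219). The unlike pair of ammonium experiment 1 and water experiment 4 reached 0.36, above all 3. Cortex libraries of one number were therefore not taken as pairs, and the cortex difference was not fitted with a block for the experiment number. With the replicate block the adjusted p values after water were 0.439 for pp_138411, 0.877 for pp_247477 and 0.276 for pp_138407, and the block changed no call of the 3. Both edgeR and DESeq2 on recovered reads called 0 of the 3 in either treatment.

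Counts over all transcripts tested varied: 6284 were higher in vessels after water and 3017 lower, with ranges of 3587 to 7262 and 932 to 4507 when 1 library was left out. After ammonium 3798 were higher and 1011 lower, with ranges of 2361 to 4496 and 296 to 2163. Over the other alternatives the counts after water ran from 4378 to 8460 and from 1803 to 6985, and after ammonium from 671 to 4801 and from 29 to 3219. The cause of these changes was not tested.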

Other observations

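Without the cortex ammonium library of experiment 3, a different set of 7 transcripts met the rule, named here after their values were seen. The lowest cortex difference was that of pp_43807, -1.26, with 5.62 and 4.97 in the ammonium libraries of experiments 1 and 4 and 7.77 to 19.4 in the water libraries. In the library left out it held 50.2, above all 3 water libraries. Next was pp_164027, with a difference of -1.17 and 0.326 and 0.524 after ammonium against 1.06 to 3.60 after water, and 2.55 in the library left out. In experiment 3 both transcripts were thus higher than in the ammonium libraries of experiments 1 and 4. These differences rest on 2 ammonium libraries and have no further check.

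Apart from its identifier neighbours pp_138409 and pp_138412, the transcripts whose log2 values correlated best with the mean of the 3 over 24 libraries were pp_205853 (r = 0.933), pp_107690 (r = 0.929) and pp_132272 (r = 0.917). The ranking was made after the values were seen. Without the low cortex library these correlations were 0.848, 0.804 and 0.931, and none of the 3 was among the best 5. In their place stood pp_250754 (r = 0.957), pp_112931 (r = 0.951) and pp_154974 (r = 0.950). In the cortex, pp_205853 had 29.3, 4.34 and 36.6 in the ammonium libraries of experiments 1, 3 and 4 and 22.6 to 40.4 in the water libraries. It shared the low library of experiment 3, and its values in experiments 1 and 4 lay within the water range.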
